A study of Mus musculus with 21 samples.

Results

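The Notch system was followed in whole mouse liver after deletion of Gata4 from sinusoidal endothelium. Its 10 genes studied here were the receptors Notch1, Notch2, Notch3 and Notch4, the ligands Dll1, Dll4, Jag1 and Jag2, and the target genes Hes1 and Hey1, taken by their symbols in the platform annotation. All 10 were measured, each on 1 row of the 25428 genes on the array. Knockout livers came from 10 Gata4-LSEC-KO mice, in which a Clec4g-icre driver transgene (Clec4g is a lectin gene of sinusoidal endothelium) was combined with a floxed Gata4 allele (Gata4tm1.1Sad). Siblings with the genotype label wt gave 11 control livers, and the labels do not say whether these carried the driver or the floxed allele. All mice were on a standard diet, and the labels give neither sex nor age. Sample numbers in the descriptions fell into 2 consecutive runs, with 4 knockout and 5 control livers in run 1 and 6 knockout and 6 control livers in run 2.

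Notch receptors are surface proteins that are cut when a ligand of the Delta-like (Dll) or Jagged (Jag) family on a neighbouring cell binds them. The freed intracellular part enters the nucleus, joins the DNA-binding protein RBPJ and switches on repressor genes of the Hes and Hey families. In liver, Notch1, Notch4 and Dll4 are known from endothelium, Notch2 and Jag1 from bile duct formation, and Notch3 from the mural cells of vessels.

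Values are log2 signals after robust multi-array averaging (RMA), in which every array was brought to the same distribution, with a median of 3.75. Signals of different genes come from different probes, so each gene is compared only with itself between livers. A gene was called when its adjusted p was under 0.05 in limma's moderated test with run as a term, adjusted by the Benjamini-Hochberg method over all 25428 genes. Whole liver mixes cell types, and fewer cells of a type cannot be told apart from less RNA per cell. Gata4 averaged 6.53 ± 0.23 (log2, SD, n = 10) in knockout livers and 6.73 ± 0.29 (SD, n = 11) in controls (adjusted p = 0.26), so whole-liver RNA did not check the deletion. No 2 arrays held identical values, and each array correlated with the mean of the rest of its group at 0.986 to 0.994.

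The receptor Notch1 and the target Hey1 were higher in knockout livers, and none of the Notch genes was lower. The signal of Notch1 was 1.33-fold higher and that of Hey1 1.34-fold higher; Hey1 had a control mean under the array median, and whether it lay above probe background was not analysed here. Over all genes the same test called 3.28% higher and 4.05% lower (7.33% in all), and among the Notch genes 2 of 10 were called (20%). The median log2 difference, knockout minus control, was 0.18 over the 10 Notch genes and -0.01 over all genes. At an unadjusted limma p under 0.05, 3 were higher (Notch1, Hey1 and Hes1) and 0 lower. The share of all genes at this unadjusted level was not counted, so the 3 of 10 have no background beside them. None of the 4 ligands passed at either level, and Hes1 had the largest difference of the 10 without passing after adjustment.

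Notch1 carried the smallest adjusted p of the 10 genes. Its log2 values were 7.51, 7.57, 7.62 and 7.64 in the knockout livers of run 1, against 7.12, 6.89, 6.92, 7.16 and 7.22 in the controls of run 1. In run 2 they ran from 6.75 over a median of 7.09 to 7.17 in knockout livers, against 6.49 over 6.71 to 6.94 in controls. The genotypes did not overlap in run 1, with the knockout livers higher, and they overlapped in run 2. Run 1 showed this for 2 of the 10 Notch genes, Notch1 and Hey1, and for 1.71% of all genes. No Notch gene had all knockout livers of run 1 below the controls (2.51% of all genes), or all those of run 2 above (1.38%) or below (1.73%) them. Both genotypes lay lower in run 2. Notch1 averaged 7.26 ± 0.30 (SD, n = 10) in knockout livers and 6.88 ± 0.23 (SD, n = 11) in controls, with a log2 difference of 0.41 ± 0.07 (SE, limma adjusted p = 0.0015, 95% interval 0.27 to 0.55). Every knockout liver was above the control mean of its own run, as for 3.23% of all genes. Run 1 gave a difference of 0.52 and run 2 one of 0.32 (interaction of genotype and run, adjusted p = 0.64).

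The promoter of Notch1 is shown because it is the receptor gene that changed. RefSeq promoter sequences of assembly GRCm38.p6 were at hand for 8 of the 10 Notch genes, not for Hes1 and Hey1. The 250 bases before the RefSeq start of Notch1 lie at chr2:26503823-26504072 on the minus strand of GRCm38.p6, written 5′ to 3′ in the direction of the gene:
Notch1: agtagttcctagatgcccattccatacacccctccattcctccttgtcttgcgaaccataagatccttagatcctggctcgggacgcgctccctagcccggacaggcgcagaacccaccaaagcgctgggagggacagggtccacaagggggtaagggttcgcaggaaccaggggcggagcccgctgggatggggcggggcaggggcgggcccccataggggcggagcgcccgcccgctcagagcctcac
This stretch is 66% G and C, against a median of 52.4% over all 32851 promoters of the table, and holds 16 CpG dinucleotides. It was searched on both strands for the RBPJ core TGGGAA and for GATA sites, which were AGATAA or AGATAG and also TGATAA or TGATAG; no motif contains another. Neither was present, so no letters are capitalised. The RBPJ core occurred in 21.6% and a GATA site in 26.5% of all promoters over the same 250 bases. None of the 9 promoter windows of the 8 Notch genes held either motif.

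Hey1, which encodes a transcriptional repressor of vessel and heart development, was dim in controls, with a mean below the array median. Its log2 values were 4.01, 3.75, 4.48 and 4.57 in the knockout livers of run 1, against 3.72, 3.66, 3.50, 3.75 and 3.68 in controls. In run 2 they ran from 3.79 over a median of 3.94 to 4.58 in knockout livers, against 3.49 over 3.72 to 3.88 in controls. In run 1 the lowest knockout value and the highest control value both round to 3.75, and the unrounded knockout value was the higher; in run 2 the genotypes overlapped. Of the 10 knockout livers, 7 were above the highest control of either run. The share of all genes with 7 or more such livers was not counted. The spread was wider in knockout livers, with 4.12 ± 0.33 (SD, n = 10), than in controls, with 3.70 ± 0.12 (SD, n = 11). Hey1 had a log2 difference of 0.42 ± 0.10 (SE, limma adjusted p = 0.019, 95% interval 0.20 to 0.64), and 10 of 10 knockout livers were above the control mean of their run. Run 1 gave 0.54 and run 2 gave 0.33 (interaction adjusted p = 0.79).

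**Figure D1:**
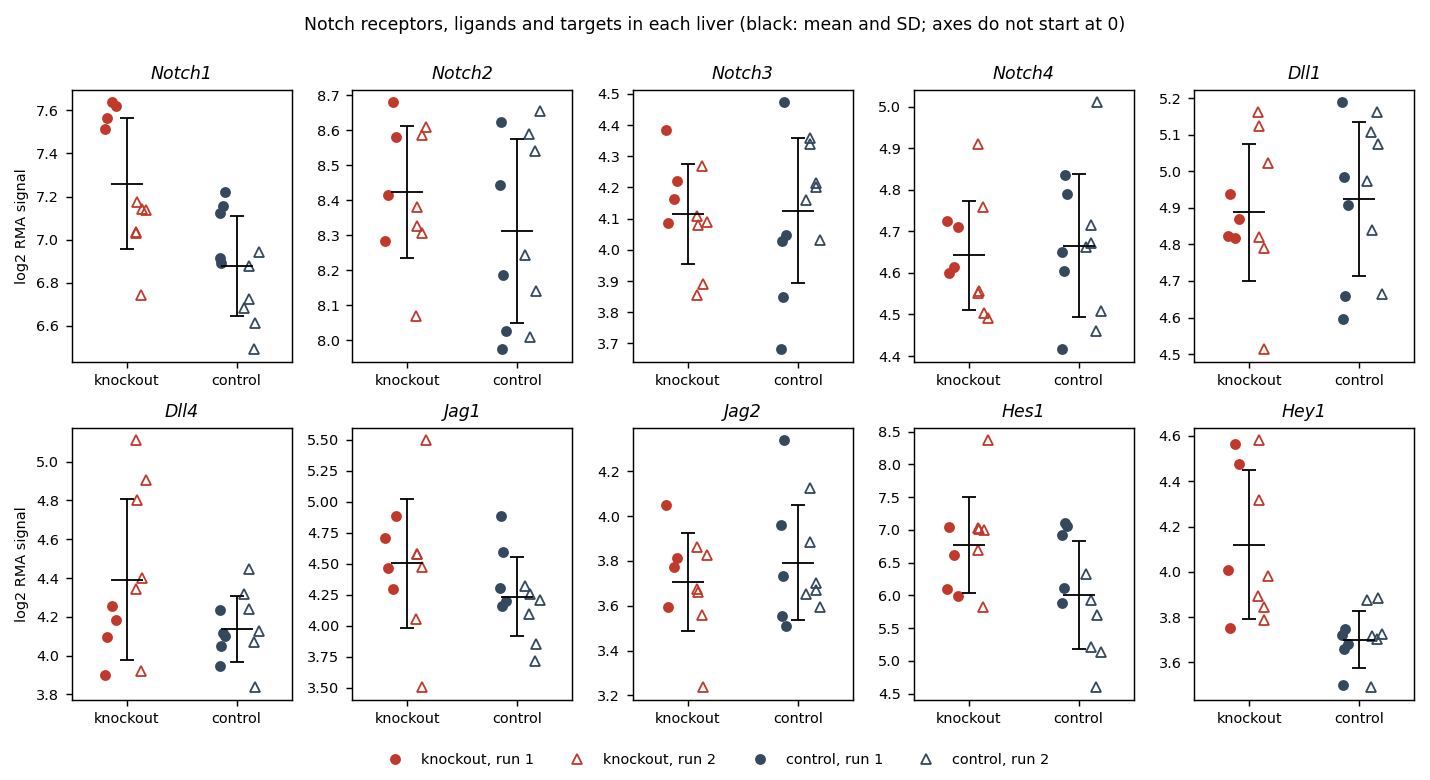
Log2 RMA signal of each Notch gene in each liver, knockout left of control, with filled circles for run 1, open triangles for run 2, and black bars for the group mean and SD (n = 10 knockout, n = 11 control). The 4 knockout livers of run 1 stand above all controls for Notch1, and 7 of 10 knockout livers do so for Hey1. How many of all genes reach such numbers of livers was not counted. For Hes1, 1 knockout liver of run 2 stands at 8.37.

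The remaining receptors had differences with intervals that included 0. Notch2, a receptor needed for bile duct formation, had log2 values of 8.07, 8.40 and 8.68 (lowest, median, highest) in knockout livers and 7.97, 8.24 and 8.65 in controls. Its difference was 0.11 ± 0.10 (SE, limma adjusted p = 0.57, 95% interval -0.10 to 0.32), and 7 of 10 knockout livers were above the control mean of their run. The 2 groups overlapped over nearly their whole range. Notch3, the receptor of mural cells, ran over 3.86, 4.10 and 4.38 in knockout livers and 3.68, 4.16 and 4.47 in controls, with a difference of -0.01 ± 0.09 (adjusted p = 0.96, 95% interval -0.19 to 0.17). For Notch3 the difference was 0.20 in run 1 and -0.17 in run 2, a change of sign whose interaction did not pass (p = 0.034, adjusted p = 0.44). Notch4, an endothelial receptor, ran over 4.49, 4.61 and 4.91 in knockout livers and 4.42, 4.66 and 5.01 in controls, a difference of -0.02 ± 0.07 (adjusted p = 0.89, 95% interval -0.17 to 0.12). The upper bounds of the intervals of Notch3 and Notch4 lie below the lower bound of 0.27 for Notch1, and that of Notch2 (0.32) lies above it. The differences between these genes were not tested.

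Among the ligands, Dll4 and Jag1 had positive differences and Dll1 and Jag2 small negative ones, and no ligand passed the test. Dll4, the ligand of arterial and sprouting endothelium, had log2 values of 3.90, 4.10, 4.19 and 4.26 in the knockout livers of run 1 and 4.23, 4.05, 3.95, 4.12 and 4.10 in the controls of run 1. In run 2 its values were 3.92, 4.60 and 5.11 (lowest, median, highest) in knockout livers and 3.84, 4.18 and 4.45 in controls. Knockout replicates 8, 9 and 10, all of run 2, were above every control for Dll4, at 4.80, 4.91 and 5.11, and the other knockout livers lay within or near the control range. The Dll4 difference was 0.24 ± 0.12 (SE, limma adjusted p = 0.24, 95% interval -0.01 to 0.49), with 0.02 in run 1 and 0.41 in run 2 (interaction adjusted p = 0.60).

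Jag1, the ligand whose loss in patients leaves the liver with too few bile ducts, had log2 values of 4.71, 4.47, 4.88 and 4.30 in the knockout livers of run 1 and 4.31, 4.16, 4.88, 4.59 and 4.20 in controls. In run 2 they were 3.50, 4.53 and 5.496 (lowest, median, highest) in knockout livers and 3.71, 4.15 and 4.32 in controls. Knockout livers held both the lowest value, in replicate 6, and the highest, in replicate 9, of all livers. Of the knockout arrays, these 2 correlated least with the mean of the rest of their group (r = 0.987 and 0.988). The Jag1 difference was 0.28 ± 0.17 (SE, limma adjusted p = 0.35, 95% interval -0.07 to 0.64), and it was 0.16 without knockout replicate 9 and 0.38 without knockout replicate 6.

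Dll1, a Delta-like ligand known from somite formation and from marginal zone B cell development, ran over 4.51, 4.85 and 5.16 in knockout livers and 4.60, 4.97 and 5.19 in controls. Its difference was -0.04 ± 0.09 (SE, limma adjusted p = 0.85, 95% interval -0.22 to 0.14). Jag2, the second Jagged ligand, ran over 3.24, 3.72 and 4.05 in knockout livers and 3.51, 3.70 and 4.34 in controls, a difference of -0.08 ± 0.10 (adjusted p = 0.70, 95% interval -0.29 to 0.13). Both genotypes had Jag2 means close to the array median of 3.75.

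Hes1, a repressor gene that Notch and other signals induce, had the genotype difference that varied most between the runs among the 10 Notch genes. In run 1 its log2 values were 6.10, 7.04, 5.99 and 6.61 in knockout livers and 6.92, 6.11, 5.88, 7.11 and 7.07 in controls. In run 2 they were 5.82, 7.01 and 8.37 (lowest, median, highest) in knockout livers and 4.59, 5.45 and 6.33 in controls. The genotypes overlapped in both runs, and the controls averaged 6.62 ± 0.58 (SD, n = 5) in run 1 and 5.48 ± 0.63 (SD, n = 6) in run 2. Over all livers the difference was 0.79 ± 0.32 (SE, limma adjusted p = 0.14, 95% interval 0.13 to 1.45), with 7 of 10 knockout livers above the control mean of their run. Run 1 gave -0.18 and run 2 gave 1.51, and a fit of the run 2 livers alone passed (limma adjusted p = 0.036). The interaction of genotype and run was 1.69 ± 0.54 (SE, p = 0.0052) and did not pass over all genes (adjusted p = 0.25); 0.0315% of all genes passed it. The labels do not say what set the runs apart.

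**Figure D2:**
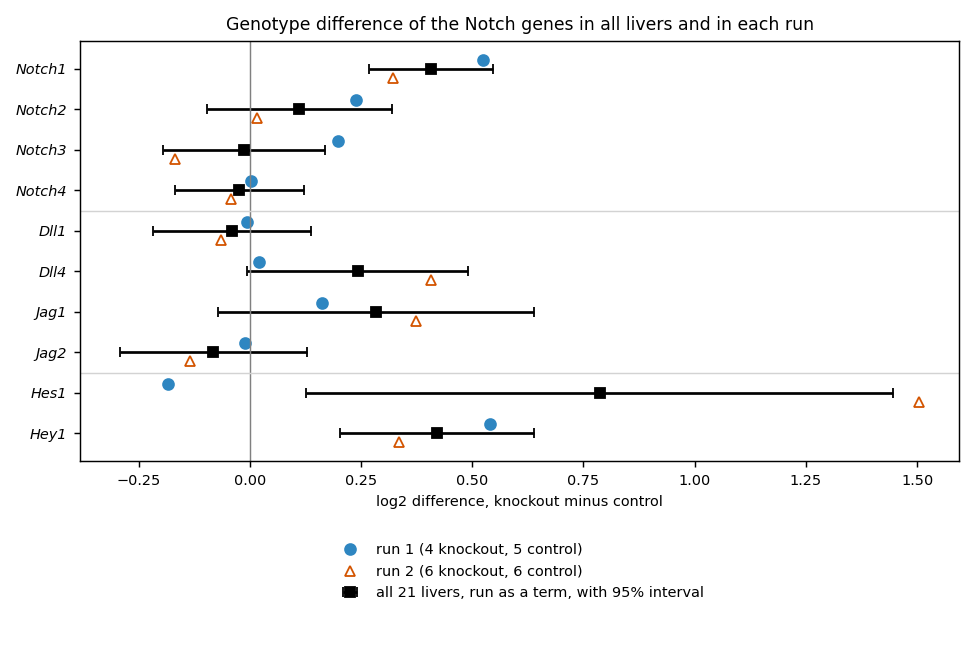
Log2 difference, knockout minus control, of the receptors (top), ligands (middle) and targets (bottom), as black squares with 95% intervals for all 21 livers, blue circles for run 1 and open orange triangles for run 2. Notch1 (0.52 and 0.32) and Hey1 (0.54 and 0.33) lie right of 0 in both runs, whereas Hes1 is at -0.18 in run 1 and 1.51 in run 2.

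The other genes of the pathway were read from a list of 72, of which 69 were measured. Of these, 2 were higher, 2 were lower and 65 did not pass (5.8% called, against 7.33% of all genes), with a median difference of -0.01. Called genes lay among the regulators of endocytosis and turnover and among the other targets.

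Regulators of ligand endocytosis and receptor turnover had 1 of 14 members higher and 2 lower. Fbxw7, the ubiquitin ligase subunit that marks the Notch intracellular domain for destruction, averaged 5.02 ± 0.16 (SD, n = 10) in knockout livers and 5.37 ± 0.21 (SD, n = 11) in controls. It fell by 0.34 ± 0.07 (log2, SE, limma adjusted p = 0.0062), with differences of -0.32 (run 1) and -0.36 (run 2). All 10 knockout livers were below the control mean of their run, as for 4.47% of all genes. Mib2, a ubiquitin ligase that acts on ligands in the sending cell, averaged 4.65 ± 0.13 in knockout livers and 4.92 ± 0.19 in controls and fell by 0.27 ± 0.07 (adjusted p = 0.03). The Mib2 difference was -0.18 in run 1 and -0.34 in run 2 (limma interaction of genotype and run, adjusted p = 0.78). The call of Mib2 was lost without control replicate 8 or 9 or without knockout replicate 7 or 8 (adjusted p up to 0.059). Dtx3, a deltex family ubiquitin ligase that was dim in controls, averaged 3.80 ± 0.20 in knockout livers and 3.52 ± 0.16 in controls, a rise of 0.28 ± 0.08 (adjusted p = 0.03). The Dtx3 difference was 0.10 in run 1 and 0.42 in run 2 (limma interaction p = 0.042, adjusted p = 0.47). Without control replicate 8, knockout replicate 7 or knockout replicate 9 the call of Dtx3 was lost (adjusted p up to 0.054).

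The receptor glycosylation and cleavage enzymes had none of 14 measured members called by limma (1 higher and 1 lower at an unadjusted p under 0.05), with differences from -0.22 (Rfng, a Fringe glycosyltransferase) to 0.21. The lowest p among them was that of Psen2, a catalytic subunit of gamma-secretase, with a difference of 0.21 ± 0.07 (SE, limma adjusted p = 0.08). The nuclear complex had none of 20 measured members called by limma (2 higher and 2 lower at an unadjusted p under 0.05). For both lists, the share of all genes at this unadjusted level was not counted. Rbpj, the DNA-binding partner of Notch, averaged 4.40 ± 0.43 in knockout livers and 4.44 ± 0.39 in controls, a difference of -0.03 ± 0.17 (adjusted p = 0.96, 95% interval -0.37 to 0.32). The lowest p in the complex was that of the corepressor Ctbp1, at 0.19 ± 0.07 (adjusted p = 0.10). Its difference was 0.40 in run 1 and 0.02 in run 2 (limma interaction of genotype and run, p = 0.0034, adjusted p = 0.22). None of the 7 other ligands was called by limma, at an unadjusted p under 0.05 either (0 of 7); Dlk2 had the lowest p (-0.11 ± 0.08, adjusted p = 0.44), and 6 of the 7 had control means under the array median.

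Among 14 further target genes, 1 was higher and none was lower (5 and 1 at an unadjusted limma p under 0.05), with a median difference of 0.10. Without a share of all genes at that unadjusted level, the 5 and 1 are not read as a result about the targets. Efnb2, the ephrin ligand of arterial endothelium, averaged 4.95 ± 0.34 (SD, n = 10) in knockout livers and 4.53 ± 0.26 (SD, n = 11) in controls and rose by 0.40 ± 0.10 (SE, limma adjusted p = 0.023). Its difference was 0.38 within run 1 and 0.41 within run 2. Hey2 and Heyl, the relatives of Hey1, had differences of -0.01 ± 0.06 (adjusted p = 0.92) and 0.19 ± 0.12 (adjusted p = 0.39). Nrarp, a feedback inhibitor that Notch induces, had 0.12 ± 0.10 (adjusted p = 0.50). The lowest difference of the list was that of the repressor gene Hes7, -0.22 ± 0.08 (adjusted p = 0.11), and the highest was that of Ccnd1 (cyclin D1), 0.62 ± 0.19 (adjusted p = 0.051). Sox9, a bile duct transcription factor, had 0.57 ± 0.18 (adjusted p = 0.06) and Myc 0.47 ± 0.20 (adjusted p = 0.16). Rbpj, Rfng, Hey2, Heyl, Nrarp, Hes7, Ccnd1, Sox9 and Myc were named after their values were seen.

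**Figure D3:**
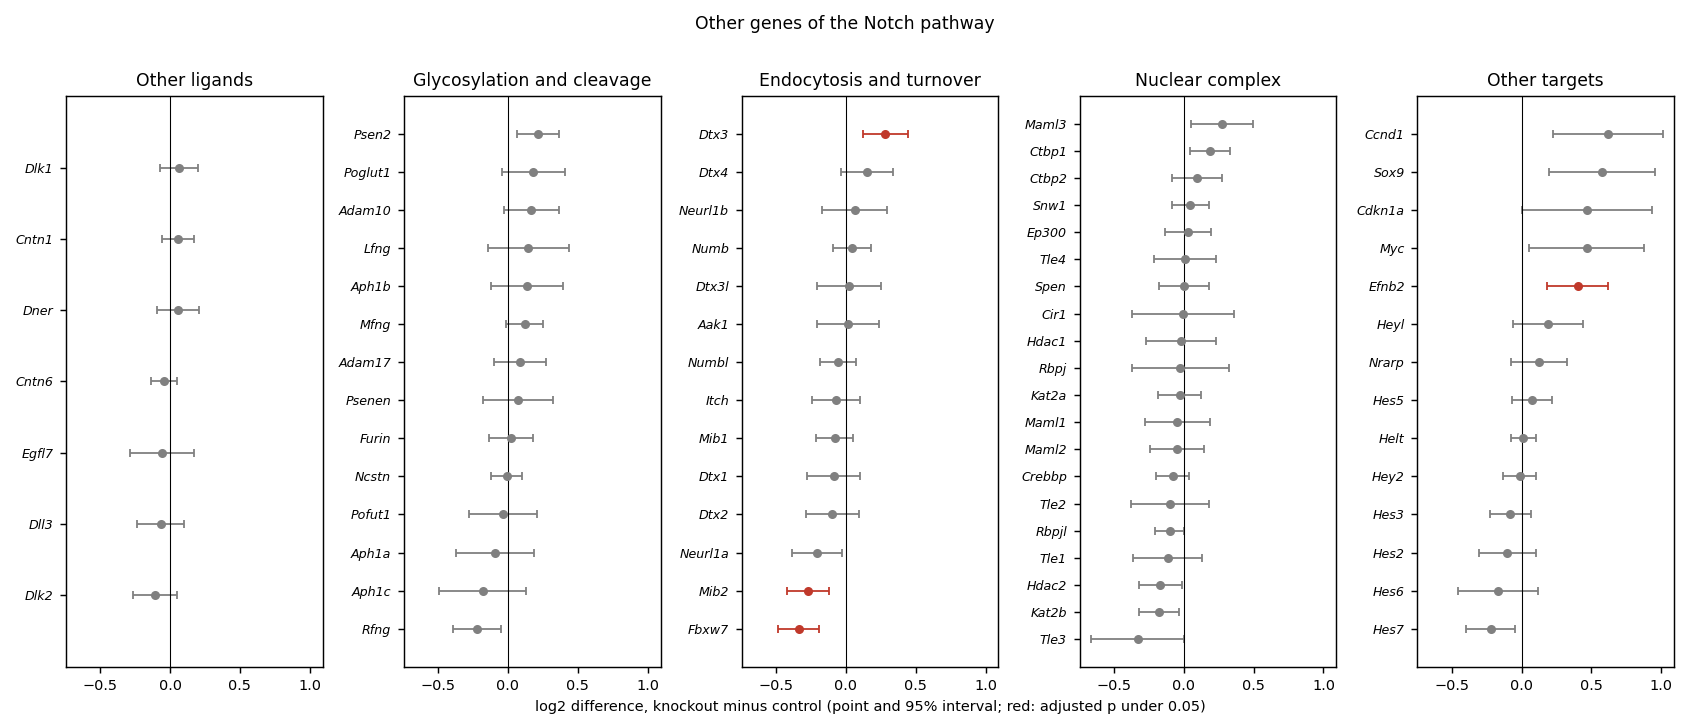
Log2 difference, knockout minus control, of 69 other Notch pathway genes in 5 groups, as points with 95% intervals over 21 livers, red where the adjusted p was under 0.05. The red genes are Dtx3 and Efnb2 on the right of 0 and Mib2 and Fbxw7 on the left.

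Marker lists of 9 cell types or classes were read beside the Notch genes, against 3.28% of all genes called higher and 4.05% called lower. Of 13 measured sinusoidal endothelial markers, none was higher and 9 were lower, and the mean log2 signal of the list ran from 6.22 to 6.997 in knockout livers and from 6.75 to 7.65 in controls. Plxnc1 (-1.01 ± 0.12, SE), Bmp2 (-1.17 ± 0.15) and F8 (-0.77 ± 0.13) had the smallest adjusted p. Clec4g, whose promoter drives the recombinase, was also lower (-0.92 ± 0.23, adjusted p = 0.018), a call lost in the fit without the run term (adjusted p = 0.053). Of 14 markers of all endothelium, Emcn (0.999 ± 0.24) and Eng (0.48 ± 0.13) were higher and Ptprb (-0.56 ± 0.11) was lower, with list means of 5.94 to 6.66 in knockout livers and 5.67 to 6.43 in controls. The call of Eng was lost without control replicate 8 or 9 or without knockout replicate 3, 4 or 10 (adjusted p up to 0.057). Arterial endothelium had 1 of 12 members higher, Efnb2, and 1 lower, the connexin gene Gja4 (-0.44 ± 0.13), whose call did not survive leaving out 1 liver in 14 of 21 cases (adjusted p up to 0.086). Its list means overlapped (4.48 to 4.80 in knockout livers, 4.52 to 4.74 in controls). Efnb2 and Hey2 are on this list and among the targets, so they are no separate evidence.

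Outside endothelium, 5 of 13 stellate and mural cell markers were higher and none was lower, among them Cygb (0.96 ± 0.15, SE), Pdgfrb (0.59 ± 0.12) and Rgs5 (0.79 ± 0.16), with list means of 6.34 to 6.68 in knockout livers and 5.87 to 6.40 in controls. Smooth muscle had none of 7 higher and 1 lower (Mylk, -0.31 ± 0.07). Its list means were 4.72 to 5.32 in knockout livers and 4.72 to 5.90 in controls. Of 9 measured bile duct markers, Prom1 was higher (0.96 ± 0.24) and Aqp1, which endothelium also expresses, was lower (-0.62 ± 0.17), with list means of 4.24 to 4.87 in knockout livers and 4.01 to 4.49 in controls. The duct markers Krt19, Epcam, Cftr, Cldn4 and Sctr had control means under the array median. Krt7, with a control mean of 4.53, lay above it and had a difference of 0.08 ± 0.15 (SE, limma adjusted p = 0.83). Sox9, on this list and among the targets, also lay above it (4.87), with 0.57 ± 0.18 (adjusted p = 0.06). All 10 knockout livers were above the control mean of their run for Sox9, as for 3.23% of all genes. Of the 9 duct markers, 8 had positive differences and 1 a negative one, and the share of all genes with positive differences was not counted. Krt7 and Sox9 were named after their values were seen. Macrophage markers had 6 of 11 members higher, with list means of 6.36 to 7.25 in knockout livers and 5.32 to 6.98 in controls. B cell markers had 3 of 8 higher (Cd79a, Cd79b and Fcer2a), and all 8 had control means under the array median. Their list means were 3.37 to 4.05 in knockout livers and 3.03 to 3.33 in controls. The call of Cd79b did not survive leaving out 1 liver in 6 of 21 cases (limma adjusted p up to 0.067). Of 8 hepatocyte markers 1 was lower, Glul (-0.69 ± 0.16), with list means of 11.5 to 11.9 in knockout livers and 11.6 to 12.0 in controls. The part of these cell types in the differences of Notch1 and Hey1 was not tested.

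The Notch genes were also compared from liver to liver after the mean of each genotype and run was subtracted, so that only variation within a group remained. Over 45 pairs and 21 livers, none passed in a permutation test within groups after Benjamini-Hochberg adjustment, by Pearson's r or Spearman's rho (lowest adjusted p = 0.29 and 0.38), and 7 had an unadjusted Pearson p under 0.05. Pearson's r ran from -0.55 to 0.60, with a median of 0.15. Dll4 and Jag1 had the highest r (r = 0.60, permutation p = 0.052; rho = 0.43, permutation p = 0.091), which was 0.45 without the 2 livers farthest from the Dll4 median. Notch1 and Dll4 had r = 0.56 (permutation p = 0.015) and rho = 0.49 (permutation p = 0.033), with r = 0.35 without the 2 farthest livers. The lowest r was that of Notch2 and Notch4 (r = -0.55, permutation p = 0.024; rho = -0.51, permutation p = 0.039), at -0.42 without the 2 farthest livers. Notch1 and Hey1, both higher in knockout livers, had r = 0.15 (permutation p = 0.50) and rho = 0.11 (permutation p = 0.62), at 0.03 without the 2 farthest livers.

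**Figure D4:**
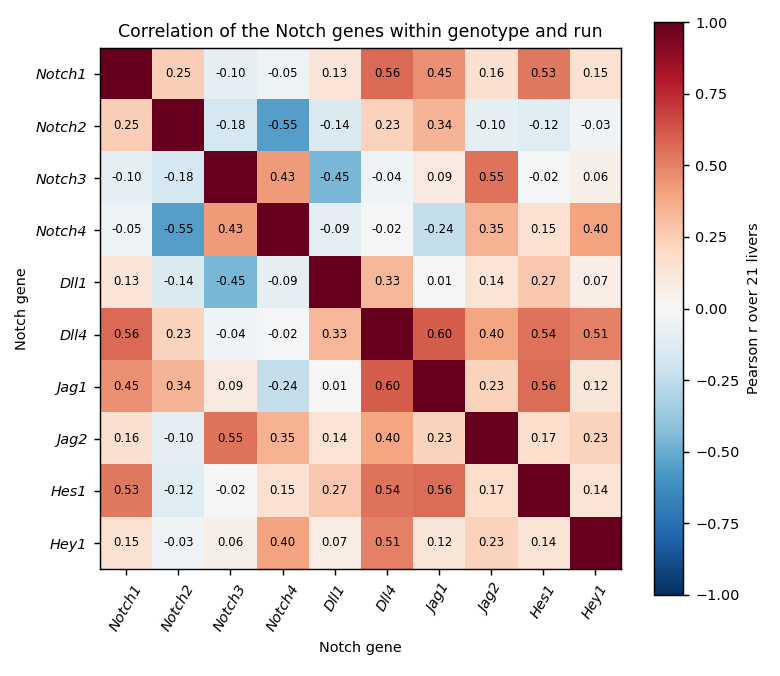
Pearson's r between the log2 values of each pair of Notch genes over 21 livers, centred on the mean of their genotype and run, from blue (negative) to red (positive). Dll4 has r of 0.60 with Jag1 and 0.56 with Notch1, and Notch2 and Notch4 have -0.55; none of the 45 pairs passed after adjustment.

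Over the same centred values, the 3 named genes most like each called member were found by Pearson's r, as a description of 21 livers that share array normalisation. These r values were the highest among all named genes, with no permutation test and no value without the 2 farthest livers. Closest to Notch1 were Gss, the glutathione synthetase gene (r = 0.91), the kinase gene Lmtk2 (r = 0.86) and the DNA methyltransferase gene Dnmt3b (r = 0.83). Their own genotype differences were 0.44 ± 0.13 (SE, limma adjusted p = 0.037), -0.04 ± 0.07 (adjusted p = 0.80) and -0.25 ± 0.12 (adjusted p = 0.21). The call of Gss did not survive leaving out 1 liver in 10 of 21 cases (adjusted p up to 0.071). Closest to Hey1 were Tff3, a trefoil peptide of mucus-secreting epithelium (r = 0.85), Gucy2c, a guanylate cyclase receptor (r = 0.82), and Gldn, which encodes gliomedin (r = 0.82). These 3 were higher in knockout livers, by 1.67 ± 0.43 (adjusted p = 0.024), 1.25 ± 0.31 (adjusted p = 0.02) and 1.31 ± 0.34 (adjusted p = 0.023). Their calls were lost in run 1 alone and in run 2 alone, with the sign of each kept.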

How the data were processed

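RNA from 21 whole livers was made into biotinylated cRNA and measured on Affymetrix arrays, 1 per sample, per the labels' protocols. The deposited table held log2 values made by the authors with RMA, per the submitters' processing notes, which name no version, array type or build. Sorted values agreed between arrays to within 0.0019. Probe background was not analysed here, and the number of arrays limits the precision. Symbols came from the platform annotation (24705 of 25428 rows had 1, 723 none). Labels call the samples biological replicates, and each was taken as 1 animal.

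All rows were fitted without a filter with limma 3.58.1 (lmFit, then eBayes; R 4.3.3), with genotype and run as terms, and a second fit added their interaction; intervals are 95% intervals of the fit. Correlations used 100000 permutations within genotype and run. The fit was tested on simulated data. Alternatives left out the run term, took each run alone, used the replicate number as a block, normalised or centred again, left out dim genes, used an intensity trend and robust prior or array weights, and left out each array; leaving out 1 poorly correlating array per group was added after seeing the data. Notch genes, pathway lists and markers were chosen with earlier results of these data known. Genes named were the 10 Notch genes, Gata4, all called genes of each pathway list or else the one with the lowest p, up to 3 called genes of each marker list, and the 3 genes most like each called Notch gene; further pathway genes are marked as chosen later. RefSeq sequences of GRCm38.p6 were searched with Python 3.11.15, and figures drawn with matplotlib 3.10.9.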

Additional observations from a re-analysis of the deposited data

Results flagged for a closer look

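Hes1 in knockout livers had 1 value far from the others: replicate 9, of run 2, stood at 8.37, and the next highest knockout liver at 7.04. The gap to its neighbour was 0.521 of the whole range of the 10 knockout livers, above Dixon's 95% critical value for groups of 10. Of the 10 Notch genes tested in this way, 1 was flagged, and chance flags about 1 in 20 groups. The same liver had the highest Jag1 value of all livers, 5.496. Within genotype and run, Jag1 and Hes1 had r = 0.56 (permutation p = 0.037, adjusted p = 0.29) and rho = 0.33 (permutation p = 0.18). Their r was 0.04 without the 2 livers farthest from the Jag1 median. Without knockout replicate 9 the Hes1 difference, knockout minus control, was 0.60 on the log2 scale, against 0.79 over all livers. It did not pass in either case. The 11 control livers were not tested for outlying values.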

How the results depend on the processing

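The calls of Notch1 and Hey1 held under 29 of 31 alternatives each, with values of 0.38 to 0.45 and 0.37 to 0.47. Each lost its call in run 1 alone (limma adjusted p = 0.11 and 0.24) and in run 2 alone (adjusted p = 0.062 and 0.15). So the count of higher Notch genes was 0 in run 1 alone and 1 in run 2 alone, where Hes1 passed at 1.51, and 2 under every other alternative; the count of lower ones was 0 throughout. Differences near 0 changed sign in some alternatives, and so did that of Hes1, which was 0.79 over all livers. Notch3 was 0.20 in run 1 alone, 0.013 with the replicate block, 0.0094 without control replicate 4 and knockout replicate 6 together, and -0.056 to 0.024 without single livers. Notch4 was 0.0028 in run 1 alone and -0.053 to 0.015 without single livers, Dll1 -0.072 to 0.0051 without single livers, Hes1 -0.18 in run 1 alone and Lmtk2 0.036 in run 2 alone. For other pathway genes, the number higher was 0 in run 1 alone, 1 in run 2 alone, 1 with the replicate block, where Efnb2 was lost (adjusted p = 0.052), 4 without both of those arrays, and 1 to 4 without single livers (1 without control 8, knockout 7 or knockout 9, 4 without knockout 6). The number lower was 0 in run 1 alone, 1 with the intensity trend, 1 without both arrays, where Mib2 was lost in both cases (adjusted p = 0.054), and 1 to 3 without single livers (1 without control 8, control 9, knockout 7 or knockout 8). Over all genes, 2 were higher and 1 lower in run 1 alone, 552 higher in run 2 alone, 602 lower with the replicate block, and 565 to 981 higher and 629 to 1471 lower without single livers (629 without control 8, 661 without control 9). The cause of the changes between runs was not tested. Nor was that of the calls lost in 1 run alone, where fewer livers entered the fit. The replicate numbers did not pair the livers: same-numbered livers of the 10 pairs correlated in their deviations at -0.09 to 0.18, 3 of them over 0.1, and 1 knockout liver correlated best with its own number; control replicate 11 had no partner and left that fit. Among the genes named, that fit also ended the calls of Clec4g (adjusted p = 0.076), Emcn (0.051), Eng (0.085) and Gja4 (0.11). Those of Aqp1 (0.053), Mylk (0.066), Cd79b (0.083) and Gss (0.093) ended as well, and the sign of each of these genes was kept. Signal over probe background was not analysed here, so how far it limits dim genes is not known.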
